A study of Mus musculus with 32 samples.

Results

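RNA of the retinal pigment epithelium (RPE) from Nrf2 eyes at postnatal day 40 (P40) was set against that from control eyes at P20, to ask which genes of late treated RPE lay near the level of early untreated RPE and which did not. The 2 sides were chosen by the treatment and age in the sample labels and held 16 of the 32 libraries of the series, 9 from Nrf2 eyes at P40 and 7 from control eyes at P20. All 16 mice of the series were labelled *rd1*, a line with a defect in *Pde6b* in which rods die in the first weeks after birth and cones later. The study's methods give the strain of its *rd1* mice as FVB/N. The Nrf2 vector, AAV Best1 Nrf2, carries the human NFE2L2 cDNA behind the Best1 promoter and is thereby expressed in the RPE. Treatment was assigned within the animal: Nrf2 eyes received this vector mixed with AAV Best1 GFP, while their fellow eyes, the controls, received the GFP vector without it. Control eyes thus also carried a virus and GFP, and the total amount of virus was not the same in the 2 arms. No library and no mouse was shared between the sides, so treatment, age and animal all differ between them and their parts cannot be told apart within this contrast. The opposite eyes of the same mice, 9 control eyes at P40 and 7 Nrf2 eyes at P20, gave a second contrast with no library in common with the first. RNA was taken from the eyecup after the retina was removed, so in these bulk libraries fewer cells of a type and less RNA per cell cannot be told apart.

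Nrf2 is a transcription factor that Keap1 holds at low levels until oxidants or electrophiles are sensed, and it then binds with small Maf proteins at antioxidant response elements near genes of glutathione synthesis, detoxification and NADPH supply. The RPE is the epithelial monolayer behind the photoreceptors that recycles retinoids for vision, engulfs shed outer segments, transports glucose, lactate and ions, and lays down its share of the basement membrane towards the choroid.

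Promoter stretches of 5 genes that were higher in late Nrf2 RPE are shown, because the treatment is a transcription factor with a known core motif. The motif searched was TGACNNNGC, the core of the antioxidant response element, on both strands and with overlapping matches kept, in RefSeq windows of 300 bases (250 before to 50 after each start, GRCm38.p6). Each stretch lies upstream of a RefSeq start, is written 5′ to 3′ on the strand of its gene, and has the 9 letters of the match in capitals. *Gclm* is on the plus strand at chr3:122245397-122245457, *Txnrd1* on the plus strand at chr10:82859088-82859148, *Abcc4* on the minus strand at chr14:118706220-118706270, *G6pdx* on the minus strand at chrX:74428903-74428963 and *Adm* on the plus strand at chr7:110627573-110627633.
Gclm: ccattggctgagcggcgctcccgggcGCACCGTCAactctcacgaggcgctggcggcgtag
Txnrd1: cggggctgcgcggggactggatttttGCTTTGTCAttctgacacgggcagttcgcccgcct
Abcc4: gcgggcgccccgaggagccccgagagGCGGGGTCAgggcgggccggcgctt
G6pdx: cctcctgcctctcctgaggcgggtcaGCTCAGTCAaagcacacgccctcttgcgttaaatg
Adm: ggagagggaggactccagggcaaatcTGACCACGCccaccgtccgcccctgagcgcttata

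In 4 of these 5 stretches the match lies on the strand opposite to the gene and so reads as the reverse complement, and in *Adm* it lies on the gene's own strand. The 5 were taken from genes with a match and do not stand for the rest. Among 49 named genes called higher, 40 had a window and 13 held the motif, so most held none. Of the 16877 genes tested below, 12205 had a window, and 16.6% of those genes (2021) held the motif in at least 1. The share was 18.6% (261 of 1405) among genes higher in late Nrf2 RPE, 17% (131 of 771) among lower genes, 16.7% (803 of 4819) among genes near the early control level and 15.9% (826 of 5210) among undecided genes. Over all 32851 RefSeq windows of this length it was 12.4%, and counted by gene over all 27025 genes with a window 14%. Among the genes that were higher in late Nrf2 RPE and lower in the contrast of the opposite eyes, it was 24.1% (65 of 270), and among genes higher in both contrasts 17.3% (43 of 249). A match describes letters in the window only.

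The transgene checked the labels first. Counts of the human NFE2L2 sequence were 0.924, 47.2 and 1098 CPM (counts scaled to library size; lowest, median and highest) in the 7 early control libraries and 3205, 7024 and 10438 CPM in the 9 late Nrf2 libraries, and the groups did not overlap (log2 fold change 5.10 ± 1.23 (SE), adjusted p = 0.0125). One early control library, the control eye of P20 mouse 3, stood apart with 1098 CPM, whereas the next highest control had 154 CPM. Its counts were closer to those of the Nrf2 eye of P20 mouse 4 than any other pair of libraries in the series (7.90 times counting noise, against 46.5 for the next closest pair). That Nrf2 eye carried 1082 CPM of the transgene, against 4810 to 9506 CPM in the other P20 Nrf2 eyes. It takes no part in the contrast of late Nrf2 with early control RPE but does in that of the opposite eyes, which gave 2801 calls without it (1081 higher, 1720 lower), and in the difference between the contrasts. Whether RNA or labels of these 2 eyes were exchanged was not tested. Without the control eye of P20 mouse 3 the transgene differed by 7.19 (log2 scale, adjusted p = 0.000733). The mouse gene *Nfe2l2* itself lay within 2-fold of the early control level, on the higher side (92.8 against 72.4 CPM by median, log2 fold change 0.57, 95% interval 0.14 to 1.00). It did not pass the main test but passed as higher in 8 of 27 alternative fits, DESeq2 and limma voom among them. Of the 16 fits that left out 1 library, 3 called it. Total counts were 23756954 to 41463426 in early control libraries and 32422410 to 49147448 in late Nrf2 libraries. The first 2 principal components held 29.2% and 25% of the variance. On the first, the Nrf2 eyes of P40 mice 6 and 3 had the lowest scores of the late libraries (-168.5 and -97.4), followed by that of mouse 4 (-60.6). P20 and P40 libraries carry different name series, and the protocol names 2 sequencing runs but not which library was in which, so age and library series cannot be told apart. All 9 P40 mice are labelled *rd1*, whereas the study's methods divide its P40 mice between *rd1* and the wild-type CD1 line and count fewer *rd1* mice at that age than the labels do. At P20 the methods also count fewer *rd1* pairs than the 7 in the labels, and which pair was left out is not given. The labels were followed, and whether some of the 9 P40 mice were CD1 is not settled by them.

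Late Nrf2 RPE differed from early control RPE in many genes, and more of these were higher than lower. Of 16877 genes tested with edgeR's quasi-likelihood test, 2885 (17.1%) passed an adjusted p of 0.05, of which 1900 (11.3%) were higher and 985 (5.84%) lower in late Nrf2 RPE. At least a 2-fold change was reached by 1131 of the higher and 425 of the lower genes. A gene was called near the early control level when it did not pass the test and the 95% interval of its log2 fold change lay within -1 and 1, that is, within 2-fold either way. By this rule 6253 genes (37.1%) were near, and the remaining 7739 (45.9%) were undecided, their intervals reaching beyond 2-fold. The undecided genes were mostly weakly expressed: of the 8439 genes with the higher mean levels, 4299 were near, 2188 undecided and 1952 called, and of the 8438 with the lower mean levels 1954 were near, 5551 undecided and 933 called. The libraries of the 2 sides did not overlap for 564 genes (3.34%) in the upward and 110 (0.652%) in the downward direction. Leaving out single libraries gave between 1570 and 3926 calls, and without the control eye of P20 mouse 3 there were 1803 (1252 higher, 551 lower). With limma voom the split of calls turned, with 2536 higher and 2820 lower, whereas the plot of change against level is drawn from the edgeR fit.

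**Figure D1:**
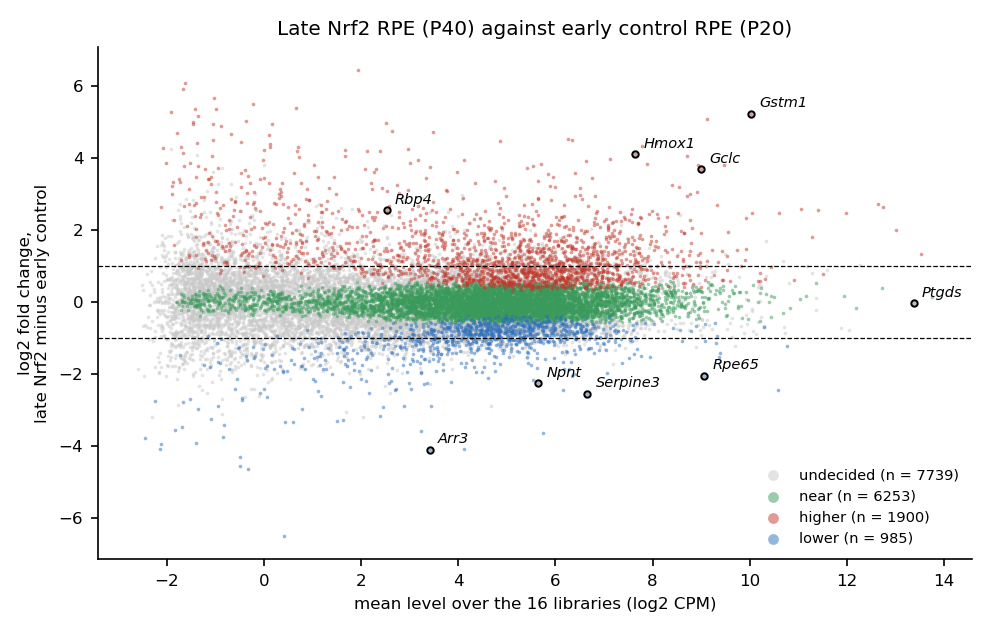
Log2 fold change of each of the 16877 genes (late Nrf2 minus early control) against its mean level over the 16 libraries in log2 CPM, coloured as higher, lower, near or undecided, with dashed lines at 2-fold. Named genes from *Gstm1* at 5.23 to *Arr3* at -4.09 lie far outside the band, and *Ptgds* at -0.02 lies inside it.

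Genes of glutathione synthesis were well above their early control level in late Nrf2 RPE. Of 19 genes for glutathione synthesis and peroxidases, 8 were higher, 0 lower, 5 near and 6 undecided, with a median log2 fold change of 0.83 (over all genes tested, -0.0066, with 11.3% higher). *Gclc*, the catalytic subunit of glutamate cysteine ligase and the rate-limiting step of glutathione synthesis, was at 69.3, 91 and 544 CPM in early control RPE and at 459.5, 2800.2 and 3523 CPM in late Nrf2 RPE (log2 fold change 3.69 ± 0.62 (SE), adjusted p = 0.0011). Its groups overlapped only through the control eye of P20 mouse 3 at 544 CPM, and 3 of the 9 late Nrf2 eyes, those of mice 3, 6 and 8, lay at 460 to 581 CPM while the other 6 were at 1673 CPM or more. *Gclm*, the modifier subunit of the same ligase and the first promoter shown above, was at 103, 117 and 313 CPM against 576, 1279 and 1982 CPM with no overlap (log2 fold change 3.01 ± 0.35 (SE), adjusted p = 4.28e-05). *Gss*, which adds glycine to complete glutathione, had medians of 241 against 32 CPM (log2 fold change 2.68 ± 0.42 (SE), adjusted p = 0.000592). *Slc7a11*, the cystine importer, had medians of 237 against 35.8 CPM (log2 fold change 2.85 ± 0.43 (SE), adjusted p = 0.000458), and *Gsr*, which reduces oxidised glutathione, had 382 against 75.4 CPM (log2 fold change 1.98 ± 0.33 (SE), adjusted p = 0.000994). The *Gsr* groups overlapped, with the late eyes of mice 3 and 6 at 121 and 122 CPM and the control eye of P20 mouse 3 at 130.5 CPM. The other named partners of the same pathway stayed within 2-fold of early control RPE. These were *Ggt1*, which cleaves extracellular glutathione (log2 fold change 0.50, 95% interval 0.04 to 0.97), *Slc3a2*, the heavy chain that pairs with *Slc7a11* (log2 fold change 0.38, 95% interval -0.04 to 0.80), and the glutaredoxin *Glrx* (log2 fold change 0.12, 95% interval -0.42 to 0.67).

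Glutathione transferases, which couple glutathione to electrophiles, were mostly higher in late Nrf2 RPE. Of 23 transferase genes tested, 16 were higher, 0 lower, 3 near and 4 undecided (11.3% higher over all genes), with a median log2 fold change of 1.82, and all 23 changes were above 0. *Gstm1* had the largest increase among the well expressed genes without overlap, from 37.1, 86.9 and 871 CPM to 3021, 5921 and 13974 CPM (log2 fold change 5.23 ± 0.78 (SE), adjusted p = 0.000398), a 37.6-fold change in the fit. *Gsta1* was at 23.4, 34.1 and 96 CPM against 367, 875 and 1323 CPM (log2 fold change 4.34 ± 0.36 (SE), adjusted p = 2.59e-06), and *Gsta2* and the predicted alpha-class gene *Gm10639* differed by 4.40 and 4.97 on the log2 scale. *Gstm3* was weakly expressed, at most 0.367 CPM in early control RPE and 0.490 CPM or more in late Nrf2 RPE (log2 fold change 4.49 ± 0.81 (SE), adjusted p = 0.00189). Some members of the alpha and mu classes are close to one another in sequence, so how reads were divided among those is uncertain. The theta-class genes *Gstt2* (log2 fold change 0.36, 95% interval -0.12 to 0.84) and *Gstt3* (log2 fold change 0.17, 95% interval -0.29 to 0.62) and the zeta-class gene *Gstz1* (log2 fold change 0.21, 95% interval -0.03 to 0.45) lay near the early control level. For *Gstt2* and *Gstt3* the side comparisons, which share libraries with the main one, gave 1.13 (adjusted p = 0.0188) and 0.68 (adjusted p = 0.0126) for control eyes at P40 against P20 and -0.74 (adjusted p = 0.189) and -0.59 (adjusted p = 0.0578) for Nrf2 against control eyes at P40. Over all genes, the first of these called 14.8% (8.34% higher, 6.42% lower) and the second 4.57% (3.33% higher, 1.23% lower).

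Enzymes that handle peroxides, quinones and heme shifted alongside. Of 29 genes of the thioredoxin, quinone and heme list, 20 were higher, 0 lower, 6 near and 3 undecided (11.3% higher over all genes), with a median of 1.37 on the log2 scale. *Hmox1*, heme oxygenase 1, was at 15.3, 33.3 and 188 CPM in early control and 238, 883 and 1748 CPM in late Nrf2 RPE (log2 fold change 4.11 ± 0.62 (SE), adjusted p = 0.000477). *Srxn1*, sulfiredoxin, which repairs overoxidised peroxiredoxins, was at 45.3, 54.5 and 444 CPM against 464, 2323 and 3333 CPM (log2 fold change 4.06 ± 0.65 (SE), adjusted p = 0.000728). Neither gene overlapped between the sides, and in both the highest control was the eye of P20 mouse 3. *Txnrd1*, the cytosolic thioredoxin reductase, had medians of 1718 against 113 CPM (log2 fold change 3.06 ± 0.45 (SE), adjusted p = 0.000341) and overlapped by a narrow margin, the highest control being 461 CPM and the lowest Nrf2 eye 460.4 CPM. *Blvrb*, biliverdin reductase B, and *Cbr3*, a carbonyl reductase, differed by 3.99 and 3.78 on the log2 scale. *Abcc4*, the exporter MRP4, had medians of 457 against 69.4 CPM (log2 fold change 2.27 ± 0.44 (SE), adjusted p = 0.00313). Its groups overlapped, with the late Nrf2 eyes of P40 mice 3, 6 and 8 at 147, 93.4 and 130 CPM. The highest early control was the eye of P20 mouse 3 at 168 CPM. Near the early control level were *Prdx2* (log2 fold change 0.29, 95% interval -0.20 to 0.78), *Prdx3* (log2 fold change 0.29, 95% interval -0.05 to 0.62) and *Txn2* (log2 fold change 0.37, 95% interval 0.08 to 0.66), of which the mitochondrial peroxiredoxin *Prdx3* and mitochondrial thioredoxin *Txn2* act in one compartment.

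The supply of NADPH, which both reductase systems consume, was shifted at some steps and not at others. Among 9 genes, 5 were higher, 0 lower, 3 near and 1 undecided (11.3% higher over all genes). *Taldo1*, transaldolase, was at 279, 405 and 628 CPM against 1216, 2120.0 and 5369.8 CPM without overlap (log2 fold change 2.47 ± 0.30 (SE), adjusted p = 7.4e-05). *Pgd* and *G6pdx*, the 2 dehydrogenases of the oxidative pentose phosphate branch, had medians of 475 against 115 CPM (log2 fold change 1.76 ± 0.29 (SE), adjusted p = 0.000954) and 394 against 112 CPM (log2 fold change 1.51 ± 0.32 (SE), adjusted p = 0.00583), and *Pgls*, between them in the pathway, had 91 against 52 CPM (log2 fold change 0.93 ± 0.24 (SE), adjusted p = 0.0186). The *G6pdx* groups overlapped, with the late Nrf2 eyes of P40 mice 3 and 6 at 134 and 146 CPM and the highest early control at 196 CPM. *Tkt*, transketolase of the same pathway, had the same median of 519 CPM on both sides (log2 fold change -0.02, 95% interval -0.59 to 0.55), and *Idh1*, the cytosolic NADP-dependent isocitrate dehydrogenase, was also near (log2 fold change 0.24, 95% interval -0.20 to 0.69). Where the genes of each list lay is drawn as shares in the bar plot.

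**Figure D2:**
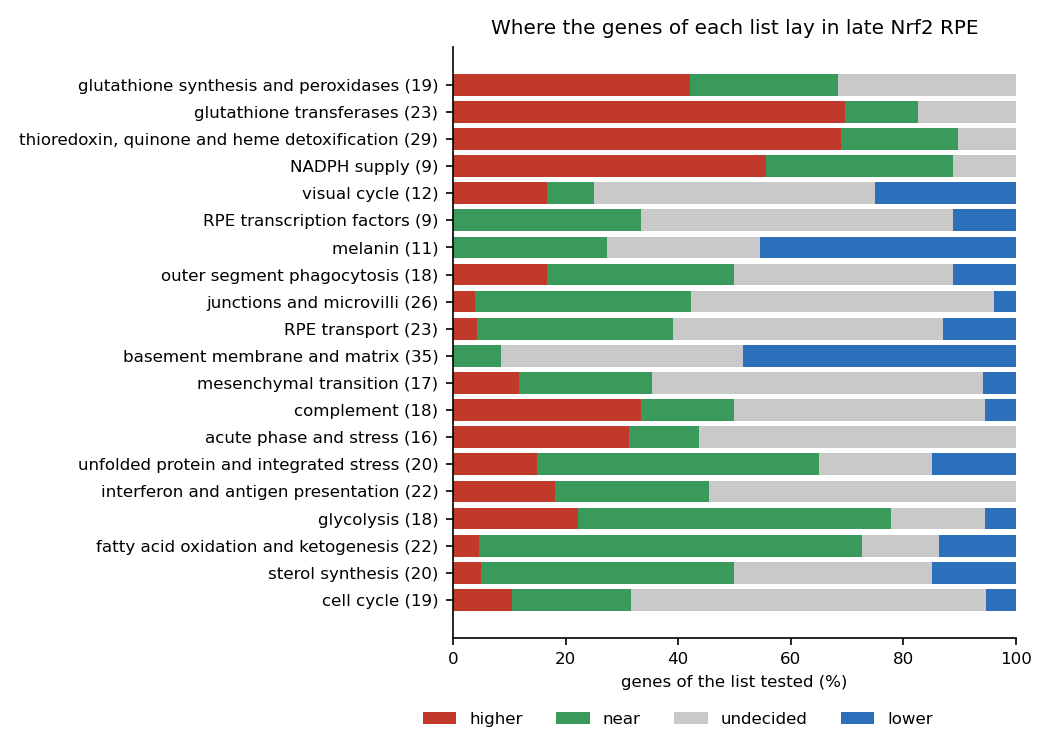
Share (%) of the tested genes of each list that was higher, near, undecided or lower in late Nrf2 RPE, with the number tested in brackets. Higher genes made up 16 of 23 transferases and 20 of 29 thioredoxin, quinone and heme genes, lower genes 17 of 35 matrix genes, and near genes 15 of 22 fatty acid oxidation genes.

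Outside these pathways, the largest increases without overlap among well expressed genes included *Layn*, *Adm*, *Fbxo2* and *Acox2*. *Layn*, layilin, a hyaluronan receptor, was at 0.208, 0.815 and 4.32 CPM in early control RPE and 14.7, 31.6 and 58.9 CPM in late Nrf2 RPE (log2 fold change 4.74 ± 0.62 (SE), adjusted p = 0.000144). *Adm*, which encodes the vasoactive peptide adrenomedullin, was at 0.439, 1.26 and 9.13 CPM against 17.7, 54.5 and 139 CPM (log2 fold change 4.73 ± 0.74 (SE), adjusted p = 0.000592). *Fbxo2*, an F-box protein that recognises glycoproteins, was at 2.62, 11.9 and 77.1 CPM against 169, 420.2 and 785 CPM (log2 fold change 4.50 ± 0.72 (SE), adjusted p = 0.000695). In all 4 of these genes the lowest Nrf2 eye lay above the highest control. *Acox2*, a peroxisomal oxidase of branched chains and bile acid precursors, differed by 4.47 on the log2 scale.

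**Figure D3:**
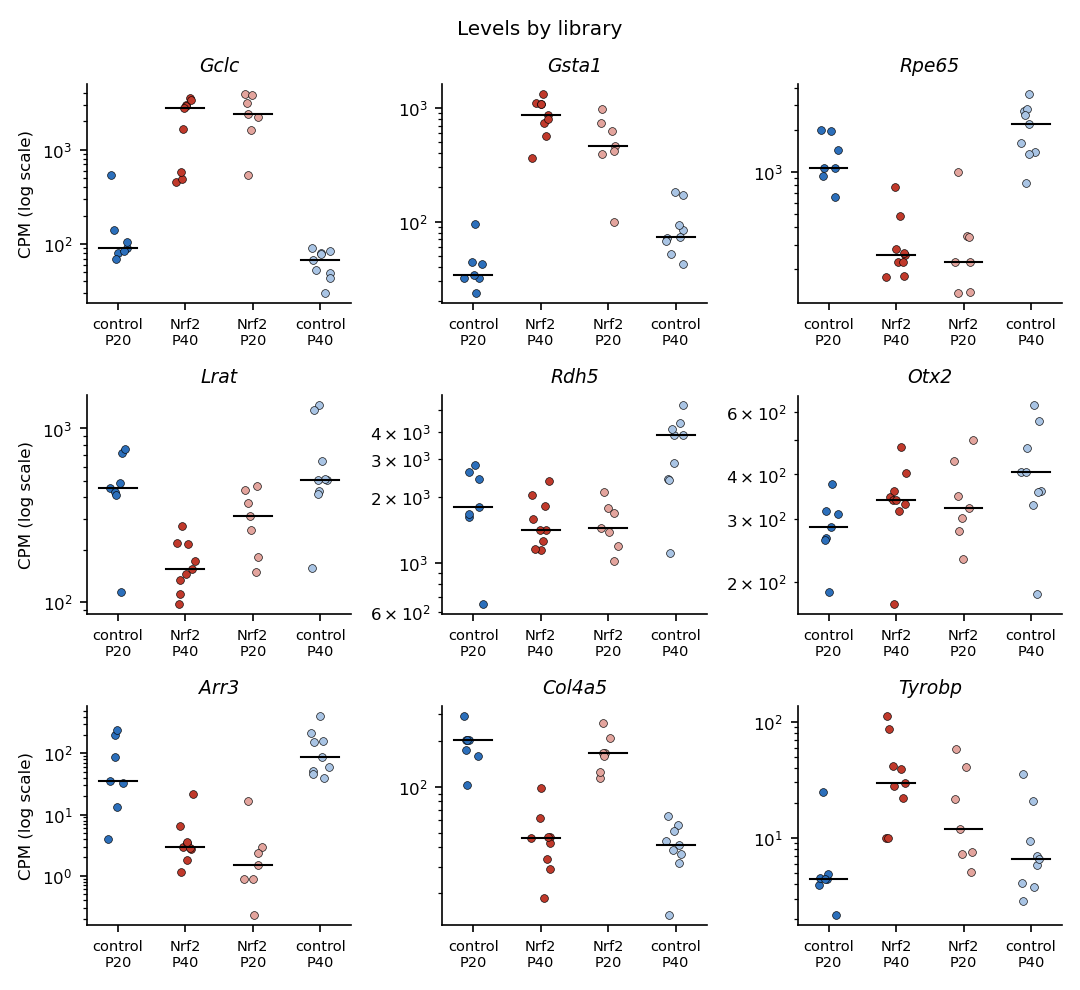
CPM of 9 genes in each library on a log scale, with a bar at the median of each of the 4 groups. *Gclc*, *Gsta1* and *Tyrobp* are higher in Nrf2 P40 than in control P20 eyes, *Rpe65*, *Lrat*, *Arr3* and *Col4a5* lower, and *Rdh5* and *Otx2* at a like level.

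Genes of the visual cycle did not shift as a block. Of 12 genes, 2 were higher, 3 lower, 1 near and 6 undecided (median log2 fold change -0.62). The shares over all genes were 11.3% higher, 5.84% lower, 37.1% near and 45.9% undecided. *Rpe65*, the isomerase that makes 11-cis retinol, was at 664, 1065 and 1979 CPM in early control RPE and 177, 254 and 777 CPM in late Nrf2 RPE (log2 fold change -2.04 ± 0.34 (SE), adjusted p = 0.000904), 0.243 times the early level in the fit. Its groups overlapped in 1 late eye at 777 CPM, as the plot of levels by library shows. *Lrat*, which esterifies retinol for storage, was at 114, 455 and 763 CPM against 97.1, 155 and 275 CPM (log2 fold change -1.53 ± 0.31 (SE), adjusted p = 0.00437). The retinoid binding protein *Rlbp1* was lower by a small margin (1151 against 1630.2 CPM by median; log2 fold change -0.69 ± 0.23 (SE), adjusted p = 0.0486), and it passed the test in 4 of 16 fits that left out 1 library. *Rdh5*, the 11-cis retinol dehydrogenase that follows *Rpe65* in the cycle, lay near the early control level (649, 1798 and 2799.6 CPM against 1153, 1421 and 2383 CPM; log2 fold change -0.31, 95% interval -0.87 to 0.24). The 2 retinol carriers of the list stood on the opposite side. *Rbp4*, the plasma retinol carrier, was at 0.915, 1.83 and 4.80 CPM against 8.24, 13.3 and 18.8 CPM (log2 fold change 2.55 ± 0.32 (SE), adjusted p = 9.64e-05), and its transport partner *Ttr* at 1041, 3106 and 5179 CPM against 6976, 10403 and 59345 CPM (log2 fold change 2.65 ± 0.57 (SE), adjusted p = 0.00653), neither with overlap. For *Ttr* the 2 highest values, 59340 and 44790 CPM, came from the Nrf2 eyes of P40 mice 3 and 6, and without those eyes the difference was 1.69 on the log2 scale (adjusted p = 0.00597). Side by side, *Rpe65* differed by 0.73 (adjusted p = 0.108) between control eyes at P40 and P20 and by -2.82 (adjusted p = 0.000281) between Nrf2 and control eyes at P40, and *Ttr* by 2.20 (adjusted p = 0.0259) and 0.42 (adjusted p = 0.851). These side comparisons share libraries with the main one.

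Of 9 transcription factors that specify the RPE, 0 were higher, 1 was lower, 3 were near and 5 undecided, while 37.1% of all genes tested were near and 45.9% undecided. *Otx2* (188, 285 and 375 CPM against 173, 340.3 and 478 CPM; log2 fold change 0.24, 95% interval -0.15 to 0.63), *Mitf* (log2 fold change 0.24, 95% interval -0.15 to 0.63) and *Sox9* (log2 fold change -0.06, 95% interval -0.53 to 0.40) were near, and their ranges overlapped throughout. *Lhx2*, needed early for eye field and RPE fate, was lower (93 against 149 CPM by median; log2 fold change -0.75 ± 0.22 (SE), adjusted p = 0.0294), a call kept in 11 of 16 fits that left out 1 library. The list of 15 RPE markers used to check the tissue held 2 higher, 3 lower, 5 near and 5 undecided genes, and its summed level was 6514 to 29466 CPM in early control and 14861 to 77616 CPM in late Nrf2 libraries.

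Of 11 melanin genes, 0 were higher, 5 lower, 3 near and 3 undecided (median -0.62), against 5.84% lower over all genes. *Pmel*, which forms the fibrils of the melanosome, was at 1817, 4411 and 7314 CPM in early control and 221, 657 and 2123 CPM in late Nrf2 RPE (log2 fold change -2.45 ± 0.43 (SE), adjusted p = 0.00159), with overlap at the top of the late range. *Oca2*, a melanosomal ion channel protein, was at 181, 257 and 294 CPM against 78.9, 126 and 165 CPM without overlap (log2 fold change -1.02 ± 0.17 (SE), adjusted p = 0.000904). *Slc45a2*, a melanosomal transporter, and *Rab27a*, which carries melanosomes along actin, differed by -1.05 (adjusted p = 0.0211) and -0.78 (adjusted p = 0.0192) on the log2 scale. *Tyr*, tyrosinase, was near (log2 fold change -0.41, 95% interval -0.96 to 0.13), as were *Slc24a5* (log2 fold change -0.28, 95% interval -0.72 to 0.16) and *Rab38* (log2 fold change -0.33, 95% interval -0.81 to 0.16). For *Pmel* the side comparisons gave -1.94 (adjusted p = 0.00895) for age in control eyes and -0.58 (adjusted p = 0.692) for Nrf2 at P40. For *Tyr* they gave -1.10 (adjusted p = 0.0293) and 0.75 (adjusted p = 0.187).

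**Figure D4:**
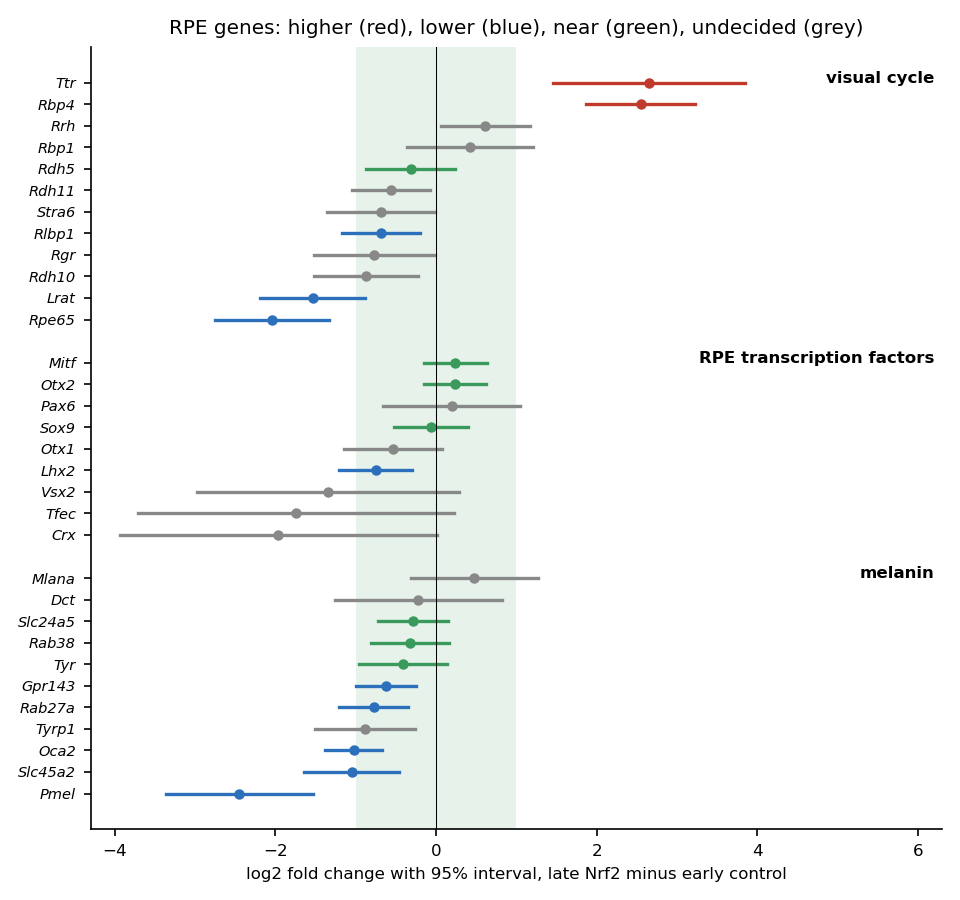
Log2 fold change (late Nrf2 minus early control) with its 95% interval for each tested gene of the visual cycle, RPE transcription factor and melanin lists, with the 2-fold band shaded. *Ttr* and *Rbp4* lie right of the band, *Rpe65*, *Lrat* and *Pmel* have estimates left of it, and *Otx2*, *Mitf*, *Sox9*, *Rdh5* and *Tyr* have intervals inside it.

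Of 18 genes of outer segment phagocytosis, 3 were higher, 2 lower, 6 near and 7 undecided. Over all genes tested, 11.3% were higher, 5.84% lower, 37.1% near and 45.9% undecided. *Ctsd*, the lysosomal protease cathepsin D that degrades engulfed outer segment protein, was at 2285, 4279.8 and 6701 CPM in early control and 7051, 19765 and 28678 CPM in late Nrf2 RPE without overlap (log2 fold change 2.01 ± 0.35 (SE), adjusted p = 0.00135). *Gas6*, a ligand of the engulfment receptors Mertk and Axl, had medians of 856 against 373 CPM (log2 fold change 1.00 ± 0.33 (SE), adjusted p = 0.047) and passed in 4 of 16 fits that left out 1 library, and *Axl* was lower (31.6 against 66.2 CPM; log2 fold change -1.14 ± 0.28 (SE), adjusted p = 0.0148). The call for *Axl* was lost when transcript length and GC content were fitted (adjusted p = 0.0638). *Map1lc3b*, which marks phagosomes in the noncanonical autophagy of the RPE, was higher (log2 fold change 0.80 ± 0.22 (SE), adjusted p = 0.0261), a call kept in 13 of 16 fits that left out 1 library. The protease *Ctsb* (log2 fold change 0.18, 95% interval -0.38 to 0.75) and the lysosomal membrane protein *Lamp1* (log2 fold change 0.14, 95% interval -0.28 to 0.56) were near.

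Of 26 junction and microvillus genes, 1 was higher, 1 lower, 10 near and 14 undecided (over all genes, 11.3%, 5.84%, 37.1% and 45.9%). The 2 called genes were claudins, proteins of the tight junction, and lay on opposite sides. *Cldn2*, which forms cation pores, was at 68.3, 123 and 179 CPM against 6.55, 28.5 and 64.1 CPM without overlap (log2 fold change -2.16 ± 0.42 (SE), adjusted p = 0.00315), and *Cldn10* at 1.66, 6.43 and 14.2 CPM against 11.9, 20.3 and 68.9 CPM (log2 fold change 2.13 ± 0.49 (SE), adjusted p = 0.01). *Ezr*, the linker of apical microvilli to actin (log2 fold change 0.45, 95% interval -0.06 to 0.95), the simple epithelial keratin *Krt18* (log2 fold change 0.30, 95% interval -0.09 to 0.68) and β-catenin, *Ctnnb1* (log2 fold change -0.12, 95% interval -0.48 to 0.24), were near.

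Of 23 transport genes tested, 1 was higher, 3 lower, 8 near and 11 undecided (over all genes, 11.3%, 5.84%, 37.1% and 45.9%). The potassium channel *Kcnj13* lay near the early control level (87.6, 290.4 and 445 CPM against 278, 319 and 701 CPM; log2 fold change 0.34, 95% interval -0.29 to 0.96), while side by side it was 1.27 (adjusted p = 0.032) for age in control eyes and -0.85 (adjusted p = 0.135) for Nrf2 at P40. *Bsg*, the chaperone of lactate transporters (log2 fold change 0.16, 95% interval -0.29 to 0.62), and the carbonic anhydrase *Car14* (log2 fold change 0.05, 95% interval -0.37 to 0.47) were near as well. The lower genes were the water channel *Aqp1* (16.2 against 62.8 CPM; log2 fold change -1.71 ± 0.40 (SE), adjusted p = 0.0104), the cation channel *Trpm1* (437 against 1314 CPM; log2 fold change -1.42 ± 0.33 (SE), adjusted p = 0.01) and the lactate transporter *Slc16a1* (303 against 618 CPM; log2 fold change -1.07 ± 0.30 (SE), adjusted p = 0.0273). *Trpm3*, the channel that hosts miR-204 in an intron, was higher (log2 fold change 0.61 ± 0.18 (SE), adjusted p = 0.0325). Of these calls *Slc16a1* and *Trpm3* were kept in 13 and 10 of 16 fits that left out 1 library, and *Trpm1* was lost with transcript length and GC content fitted (adjusted p = 0.0635).

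Collagen IV chains, elastin and other matrix genes were lower in late Nrf2 RPE. Of 35 basement membrane and matrix genes, 0 were higher, 17 lower, 3 near and 15 undecided, with a median of -0.80 on the log2 scale (5.84% lower over all genes). *Col4a5* and *Col4a2*, chains of the collagen IV network, were at 103, 202 and 288 CPM and 38.9, 58.2 and 70.1 CPM in early control RPE and at 18.7, 46.1 and 98.6 CPM and 8.16, 11.6 and 31.5 CPM in late Nrf2 RPE. Neither chain overlapped between the sides (log2 fold change -2.04 ± 0.28 (SE), adjusted p = 0.000237, and log2 fold change -1.69 ± 0.30 (SE), adjusted p = 0.00186). *Eln*, elastin of the central layer of Bruch's membrane, had medians of 8.98 against 36.6 CPM (log2 fold change -1.80 ± 0.38 (SE), adjusted p = 0.00546), and the fibrillar collagen *Col1a1* of the choroidal stroma 26.4 against 109 CPM (log2 fold change -1.68 ± 0.46 (SE), adjusted p = 0.0246). The call for *Col1a1* was lost with transcript length and GC content fitted (adjusted p = 0.0809) and without the control eye of P20 mouse 5 (adjusted p = 0.0507). *Npnt*, nephronectin, an integrin ligand of basement membranes, was at 78.6, 124 and 155 CPM against 10.4, 25.1 and 43.1 CPM without overlap (log2 fold change -2.24 ± 0.23 (SE), adjusted p = 1.34e-05), and *Emilin3*, an elastic fibre glycoprotein, had the largest decrease under the rule for named genes, 11.9, 25.6 and 50.2 CPM against 0.419, 4.10 and 9.07 CPM (log2 fold change -2.87 ± 0.57 (SE), adjusted p = 0.00375). The count of lower matrix genes was 10 without the control eye of P20 mouse 2, 3 or 7, 11 without that of mouse 5, and 12 to 19 without any other single library. It was 6 when transcript length and GC content were fitted. Near the early level were *Efemp1* (log2 fold change -0.08, 95% interval -0.71 to 0.56) and *C1qtnf5* (log2 fold change -0.22, 95% interval -0.69 to 0.24), both secreted by the RPE into Bruch's membrane. Also lower were 4 of 14 fibroblast and mural markers (*Col1a1*, *Kcnj8*, *Myh11* and *Pdgfra*), with summed marker levels of 348 to 2017 CPM in early control and 357 to 1399 CPM in late Nrf2 libraries. The part of these cells in the matrix result was not tested.

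As many matrix genes were lower in the opposite eyes as in late Nrf2 RPE. In the contrast of the opposite eyes, control at P40 against Nrf2 at P20, 0 of 35 were higher and 17 lower (background 10.7% lower of 16766 genes), with a median of -0.89. *Col4a5* gave -1.98 (adjusted p = 4.38e-05), *Col4a2* -2.12 (adjusted p = 4.55e-05), *Npnt* -1.84 (adjusted p = 0.00166) and *Eln* -2.23 (adjusted p = 4.07e-06) there. The difference between the 2 contrasts for *Col4a5* was -0.02 ± 0.37 (SE), adjusted p = 0.987. Also lower without overlap were *Elovl2*, an elongase of polyunsaturated fatty acids (log2 fold change -2.20 ± 0.46 (SE), adjusted p = 0.00546), *Pcdh18*, a protocadherin (log2 fold change -1.95 ± 0.33 (SE), adjusted p = 0.0011), and the secreted C1q-related factor *C1qtnf6* (log2 fold change -1.94 ± 0.26 (SE), adjusted p = 0.00018), which gave 2.21 (adjusted p = 0.0248), -0.12 (adjusted p = 0.869) and -2.03 (adjusted p = 0.000181) in the opposite eyes. *Serpine3*, a member of the serpin family, was lower in both contrasts (163, 249 and 449 CPM against 22.5, 40.6 and 126 CPM, log2 fold change -2.54 ± 0.33 (SE), adjusted p = 0.000137; opposite eyes -2.04 (adjusted p = 0.00122)).

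Photoreceptor transcripts, which RPE preparations can hold from the adjoining retina, included 7 lower cone markers and 4 lower rod markers in late Nrf2 libraries. Of 15 rod markers, 1 was higher, 4 lower, 2 near and 8 undecided, and of 12 cone markers, 0 were higher, 7 lower, 0 near and 5 undecided (median -1.86). The share lower over all genes was 5.84%. *Arr3*, cone arrestin, was at 4.01, 35.5 and 245 CPM against 1.17, 2.93 and 22.1 CPM (log2 fold change -4.09 ± 0.80 (SE), adjusted p = 0.00352), and *Opn1sw*, the short-wavelength cone opsin, at 4.60, 116 and 131 CPM against 0.647, 3.68 and 33.8 CPM (log2 fold change -3.58 ± 0.91 (SE), adjusted p = 0.0171). The cone sum varied widely within each side, from 58.0 to 1179.7 CPM in early control libraries and from 61.3 to 615 CPM in late Nrf2 libraries, where the eye of P40 mouse 6 was the highest. The call for *Opn1mw* was lost in 8 of 16 fits that left out 1 library. The count of lower cone markers was 3 without the control eye of P20 mouse 1 or 4, 4 without the Nrf2 eye of P40 mouse 3, 4, 5 or 8, and 5 to 8 without any other single library. *Nxnl1*, which encodes the rod-derived cone viability factor, and *Cdhr1*, a cadherin at the base of outer segments, were lower without overlap (log2 fold change -2.44 ± 0.39 (SE), adjusted p = 0.000665, and log2 fold change -2.09 ± 0.36 (SE), adjusted p = 0.00131). *Rom1*, an outer segment tetraspanin, went the other way, 42, 92.1 and 138 CPM against 251, 413 and 644 CPM without overlap (log2 fold change 2.17 ± 0.25 (SE), adjusted p = 4.92e-05). In the opposite eyes, 10 of 12 cone markers were higher in control P40 than in Nrf2 P20 libraries (background 9.15% higher) and 0 lower, with *Arr3* at 5.36 (adjusted p = 0.000486). The difference between the contrasts passed for 10 of the 12, all lower (background 2.47% lower of 17959 genes).

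Macrophage markers were mostly higher in late Nrf2 libraries. Of 18 markers, 13 were higher, 1 lower, 0 near and 4 undecided, while over all genes 11.3% were higher and 5.84% lower. The median was 1.71 on the log2 scale, and summed levels were 282 to 603 CPM in early control and 218 to 856 CPM in late Nrf2 libraries. *Tyrobp*, the signalling adaptor of myeloid receptors, was at 2.16, 4.43 and 24.6 CPM against 9.92, 29.8 and 111 CPM (log2 fold change 2.59 ± 0.62 (SE), adjusted p = 0.012), and the lipid receptor *Trem2* that signals through it at 0.832, 2.37 and 17.7 CPM against 7.13, 19.3 and 35.8 CPM (log2 fold change 2.15 ± 0.57 (SE), adjusted p = 0.0208). Both groups overlapped through the control eye of P20 mouse 3, and without it *Tyrobp* and *Trem2* differed by 3.36 and 3.13 (adjusted p = 0.00109 and 0.000241). *Fcer1g*, *Aif1*, *C1qb* and *C1qc* differed by 2.59, 2.59, 1.82 and 1.77 on the log2 scale, of which the call for *C1qb* was kept in 12 of 16 fits that left out 1 library. The receptor *Csf1r*, a defining macrophage gene, was the lower one. The count of higher markers was 7 without the control eye of P20 mouse 7, 8 without that of mouse 1 or 2, and 9 to 14 without any other single library. In the opposite eyes, 0 of 18 were higher and 9 lower, and the difference between the contrasts passed for 13 (12 higher, 1 lower; background 7.19% higher). Whether these transcripts came from macrophages in the eyecup or from other cells was not tested.

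The complement list shared its C1q genes with the macrophage markers. Of 18 complement genes, 6 were higher, 1 lower, 3 near and 8 undecided, of which the higher *C1qa*, *C1qb* and *C1qc* are also macrophage markers. The shares over all genes were 11.3% higher, 5.84% lower, 37.1% near and 45.9% undecided. *Cfi*, the protease that inactivates C3b, was at 1.23, 2.25 and 4.18 CPM in early control and 23.9, 34.2 and 45 CPM in late Nrf2 RPE without overlap (log2 fold change 3.74 ± 0.25 (SE), adjusted p = 3.38e-07), and *C1ra* at 4.95, 10.6 and 19.7 CPM against 25.9, 64.4 and 83.5 CPM (log2 fold change 2.25 ± 0.31 (SE), adjusted p = 0.000201). *Cfi* gave -0.02 (adjusted p = 0.972) in the opposite eyes, where *C1ra* gave -1.39 (adjusted p = 0.000423). Of 16 acute phase and stress genes, 5 were higher, 0 lower, 2 near and 9 undecided (11.3% higher over all genes). *Serpina3n*, an acute phase serpin of stressed glia and epithelia, was at 134, 221 and 302 CPM against 394, 775 and 1625 CPM without overlap (log2 fold change 2.05 ± 0.32 (SE), adjusted p = 0.000545). The metallothioneins *Mt1* and *Mt2* ranged up to 16240 and 2501 CPM in the Nrf2 eye of P40 mouse 3, against medians of 1022 and 135 CPM, and without the eyes of mice 3 and 6 their log2 differences were 0.88 (adjusted p = 0.0431) and 0.75 (adjusted p = 0.129), compared with 2.35 and 2.24 in all libraries. Muscle markers had summed levels of 24.7, 111 and 329 CPM in early control and 34.8, 247 and 2666 CPM in late Nrf2 libraries. They held 0 called genes of 12, but all 12 were undecided and had log2 fold changes above 0 (median 1.93). A difference in muscle RNA was thus not resolved.

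Many genes of central metabolism lay near the early control level. Of 22 genes of fatty acid oxidation and ketogenesis, 15 were near, 1 higher, 3 lower and 3 undecided, and of 18 glycolysis genes, 10 were near, 4 higher, 1 lower and 3 undecided. In these lists 19 and 17 genes lay among the 8439 genes with the higher mean levels, of which 15 and 10 were near, against 50.9% near of all genes in that range. *Acaa2*, the last step of mitochondrial β-oxidation (log2 fold change -0.08, 95% interval -0.45 to 0.28), *Eno1* (log2 fold change 0.29, 95% interval -0.07 to 0.65) and *Pkm* (log2 fold change 0.24, 95% interval -0.24 to 0.71), both late steps of glycolysis, were near. *Ppara*, the nuclear receptor of the fasting response, was lower (5.56, 6.57 and 7.24 CPM against 1.62, 3.19 and 5.53 CPM, without overlap; log2 fold change -1.07 ± 0.23 (SE), adjusted p = 0.00745). *Hadha*, of the mitochondrial trifunctional protein, was lower (log2 fold change -0.61 ± 0.16 (SE), adjusted p = 0.0177). *Ldhb*, the lactate dehydrogenase subunit that favours lactate use, was higher without overlap (398, 471 and 633 CPM against 824, 1164 and 2865 CPM; log2 fold change 1.45 ± 0.25 (SE), adjusted p = 0.00131), and *Gapdh* was higher (591 against 259 CPM; log2 fold change 1.30 ± 0.29 (SE), adjusted p = 0.00799). The calls for *Ppara* and *Hadha* were lost with transcript length and GC content fitted (adjusted p = 0.0673 and 0.142).

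The counts of the remaining lists stand beside 11.3% higher, 5.84% lower, 37.1% near and 45.9% undecided over all genes. Of 20 genes of the unfolded protein and integrated stress responses, 3 were higher, 3 lower, 10 near and 4 undecided, the chaperone *Hspa5* and the factors *Atf4* and *Xbp1* among the near. Of 20 sterol synthesis genes, 1 was higher, 3 lower (*Hmgcs1* and *Srebf2* among them), 9 near and 7 undecided. Interferon and antigen presentation genes gave 4 higher (*B2m*, *Bst2*, *H2-Aa* and *H2-K1*), 0 lower, 6 near and 12 undecided of 22. Mesenchymal transition genes gave 2 higher (*Vim* among them), 1 lower (*Tgfb1*), 4 near and 10 undecided of 17, and cell cycle genes 2 higher (the inhibitors *Cdkn1a* and *Cdkn1b*), 1 lower, 4 near and 12 undecided of 19. Among markers of other cells, the called genes were 0 of 12 for the inner retina, 0 of 14 for endothelium, 1 of 12 for melanocytes (lower, *Pmel*), 3 of 13 for Müller glia (2 higher, 1 lower) and 4 of 8 for blood (2 higher, 2 lower), against 17.1% over all genes.

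Some genes near the early control level in late Nrf2 RPE had changed with age in control eyes. The values that follow come from comparisons that share libraries and are given side by side without a test of one against another. The genes were picked as near and by their age change in controls. A change with Nrf2 at P40 of opposite sign and like size then follows from that choice and is no separate result. Among the 5 near genes with the largest decline in control eyes from P20 to P40 was *Stim1*, the calcium sensor of the endoplasmic reticulum, at 98.1, 109.6 and 151 CPM in early control and 40.8, 103 and 264 CPM in late Nrf2 RPE (log2 fold change 0.06, 95% interval -0.62 to 0.74). For it, control eyes at P40 had a median of 43.5 CPM, the age change in controls was -1.14 (adjusted p = 0.0114), and Nrf2 against control at P40 was 1.05 (adjusted p = 0.0545). The septin gene *Sept9* had medians of 32.6 against 43.8 CPM (log2 fold change -0.12, 95% interval -0.80 to 0.55), with -1.69 (adjusted p = 0.00296) for age and 1.44 (adjusted p = 0.0186) for Nrf2 at P40. *Angptl2*, a secreted angiopoietin-like factor, had 240.0 against 215 CPM (log2 fold change 0.07, 95% interval -0.82 to 0.96), with -1.31 (adjusted p = 0.0367) and 1.45 (adjusted p = 0.0502). *Prex1* and *Sel1l3* made up the 5, with age changes of -1.36 (adjusted p = 0.0306) and -1.24 (adjusted p = 0.0357). On the rising side, *Ptgds*, the lipocalin-type prostaglandin D synthase, was at 6534, 9860.5 and 16424 CPM in early control and 5915, 9038 and 26099.5 CPM in late Nrf2 RPE (log2 fold change -0.02, 95% interval -0.73 to 0.70), while control eyes at P40 had a median of 24575 CPM. Its age change in controls was 1.30 (adjusted p = 0.0349) and its change with Nrf2 at P40 -1.29 (adjusted p = 0.104). The chemokine receptor *Ccr9* gave 1.52 (adjusted p = 0.0276) and -1.20 (adjusted p = 0.0208). Of the others of these 5, *1700019D03Rik* passed the test for age in controls, and *Tmem170* and *Mettl3* did not pass it (adjusted p = 0.0677 and 0.11). The rise of *Tmem170* and *Mettl3* rested on the control eye of P40 mouse 8, at 251 and 257 CPM. The other control eyes at P40 held at most 7.04 and 25.7 CPM.

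The opposite eyes of the same mice gave a contrast in which age ran the same way and treatment the opposite way. Control eyes at P40 against Nrf2 eyes at P20 gave 3326 calls among 16766 genes (19.8%), 1534 higher and 1792 lower. In 16501 genes tested in both contrasts, 361 were higher in late Nrf2 RPE and lower in the opposite eyes, which is 19.3% of the former and 20.3% of the latter. By the same reckoning 325 were higher in both (17.4% and 21.5%), 233 lower in both (23.7% and 13.1%) and 60 lower in late Nrf2 RPE but higher in the opposite eyes (6.11% and 3.97%). Near in both contrasts were 4126 genes (66.1% and 67.5%), while 444 near genes were higher and 522 lower in the opposite eyes. Of all 16501 genes, 1512 were higher, 1782 lower and 6113 near in the opposite eyes. In late Nrf2 RPE, 1870 of them were higher, 982 lower and 6243 near. Both contrasts set the same P40 mice against the same P20 mice, so they are not independent. The plot of both contrasts places the redox genes *Hmox1*, *Srxn1* and *Txnrd1* at the upper left, the matrix genes at the lower left and the cone markers at the lower right. The difference between the contrasts, fitted over all 32 libraries with mouse as a block, equals the sum of the Nrf2-minus-control eye differences at the 2 ages and passed for 1735 of 17959 genes (9.66%), 1292 higher and 443 lower. For *Gclc* it was 8.93 ± 0.72 (SE), adjusted p = 2.2e-07, and for *Rpe65* -4.92 ± 0.49 (SE), adjusted p = 1.91e-06. For the melanin gene *Pmel* it was -0.38 ± 0.60 (SE), adjusted p = 0.782, with -2.05 (adjusted p = 0.000432) in the opposite eyes.

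**Figure D5:**
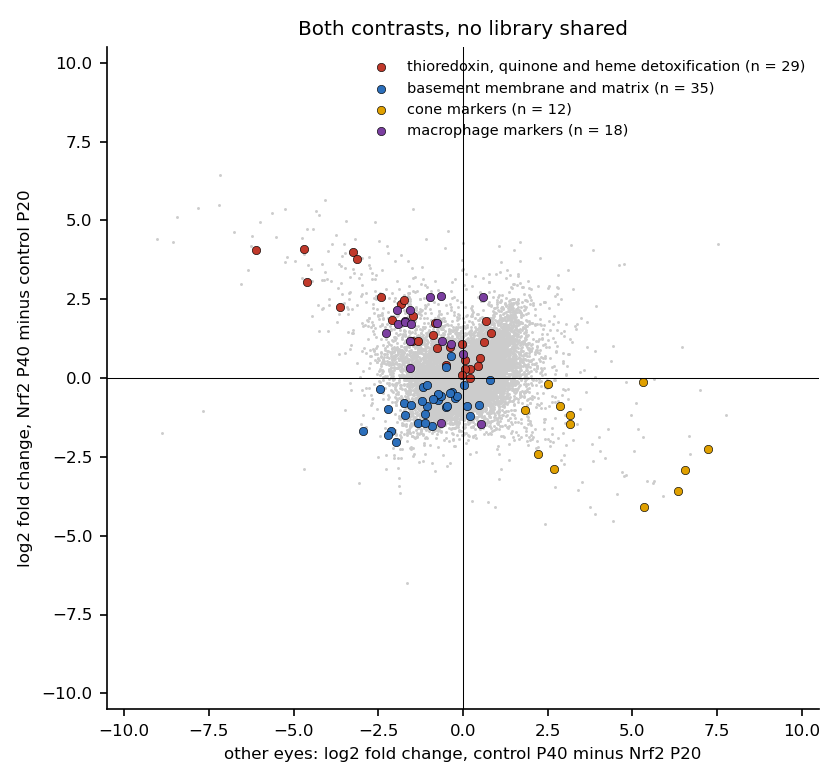
Log2 fold change of late Nrf2 against early control RPE (y axis) against that of control P40 over Nrf2 P20 eyes (x axis) for the 16501 genes tested in both, with 4 lists coloured. Thioredoxin, quinone and heme genes reach the upper left, matrix genes lie mostly at the lower left, and the 12 cone markers lie at the lower right.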

How the data were processed

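Whole-transcriptome RNA-seq was read from 1 deposited table of estimated counts per gene, whose values are whole numbers. The authors made it from polyA RNA amplified with an Ultra Low v4 kit. Per the study's methods, STAR placed the reads on mm10 with Ensembl transcripts for featureCounts, and Salmon (0.9.1 in the submitters' processing notes) estimated counts per gene in parallel, which tximport passed to DESeq2. The table does not name its counter. Its values were taken as Salmon estimates because the notes name Salmon and not featureCounts.

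Groups came from the treatment and age in the labels. Separate mice stand behind the libraries of a side, so p-values measure the spread between animals. edgeR 4.0.16 (R 4.3.3) fitted late Nrf2 against early control with TMM scaling, filterByExpr and its quasi-likelihood test, without a block, and Benjamini-Hochberg adjustment over all 16877 genes. The same fit gave control P40 against Nrf2 P20. The difference between both used all 32 libraries with mouse as a block. The 2 side comparisons were control P40 against control P20 and Nrf2 P40 against control P40 (mouse as a block). They gave 2483 (14.8%) and 762 (4.57%) calls. Levels are CPM on one TMM scale over the 32 libraries, on which 1 library's floor of 3 counts is 0.0566 to 0.182 CPM. Intervals are 95% intervals of the fitted log2 fold change. Positions and names follow GENCODE M21 and RefSeq (GRCm38.p6). The test was checked on simulated counts.

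Named genes were the 10 largest increases and 10 largest decreases among called genes with mean log2 CPM of at least 2 and no overlap, up to 4 called genes of largest change and up to 3 near genes of highest level in each of 31 lists (509 genes), a set of glutathione genes with *Nfe2l2* and the transgene, and the 5 near genes of largest age change in controls in each direction. A few of these are not printed, and genes named only by their class in a list were chosen after their values were seen. The members and lists were chosen with earlier results of these data known. *Ctgf* and *Cyr61* of the mesenchymal list were not found under these names and were not analysed here. Alternatives were limma voom 3.58.1, DESeq2 1.42.0, other scalings, filters, thresholds and covariates, a replicate block, and each library left out. Strain was taken from the labels.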

Additional observations from a re-analysis of the deposited data

Results flagged for a closer look

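In 33 of 276 sets of values tested with Dixon's criterion (a gene or summed marker level in 1 group), the highest or lowest library stood apart, while chance flags about 1 in 20 sets. The number after each name is the gap to the nearest library divided by the range.

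The control eye of P20 mouse 3, which carried 1098 CPM of the transgene, was the highest early control for *Gclc* (0.657), *Gclm* (0.652), *Gsr* (0.671), *Gsta2* (0.571), *Gm10639* (0.571), *Hmox1* (0.606), *Srxn1* (0.672), *Cbr3* (0.64), *Txnrd1* (0.673) and *Acox2* (0.575), and also for *Tyrobp* (0.67), *C1qb* (0.611) and *C1qc* (0.598). The control eye of P20 mouse 5 was the lowest for *Lrat* (0.68), *Rdh5* (0.631), *Kcnj13* (0.59), *Slc16a1* (0.672), *Trpm3* (0.569) and the summed RPE markers (0.587). That of P20 mouse 6 was the lowest for *Slc3a2* (0.587), *Rab38* (0.593), *Trpm1* (0.597), *Axl* (0.648), *Gas6* (0.583), *Col1a1* (0.623) and the summed melanocyte markers (0.57).

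Among late Nrf2 eyes, that of P40 mouse 3 was the highest for *Mt1* (0.55), *Mt2* (0.528) and *C1qtnf5* (0.496), and that of P40 mouse 6 the highest for the summed cone markers (0.622) and the lowest for *Axl* (0.532). The eye of P40 mouse 8 was the lowest for *Otx2* (0.59) and that of mouse 4 the highest for *Bsg* (0.505).

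The change differed between the 2 contrasts, by the test of the difference itself, in 1735 genes.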

How the results depend on the processing

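The count of genes that differed (2885) rose to 5356 with limma voom (47.3% of them higher, against 65.9% in the edgeR fit) and 4632 at an adjusted p of 0.1. It fell to 1857 without a filter on low counts, 1556 with a 2-fold minimum and 1350 with replicate number as a block, and ranged from 1570 (without the control eye of P20 mouse 1) to 3926 (without the Nrf2 eye of P40 mouse 1) when single libraries were left out. Without the control eye of P20 mouse 2, 3, 4, 5 or 7 it was 1640, 1803, 1797, 1706 or 1644. Fitting transcript length and GC content, DESeq2, a rod marker covariate and the other alternatives gave 2082 to 4270. Near genes (6253) fell to 2185 with a margin of 1.5-fold and otherwise numbered 5554 to 7544. Control P40 against Nrf2 P20 (3326) gave 5336 with DESeq2, 6391 with limma voom, 5252 at an adjusted p of 0.1 and 2028 with a 2-fold minimum, and 2524 with the replicate block. The difference between the contrasts (1735) gave 2721 with DESeq2 and 3418 with limma voom, 1696 without the mouse block that pairs the eyes and 1483 without P20 mice 3 and 4, an alternative chosen after seeing the data, as was leaving out the Nrf2 eyes of P40 mice 3 and 6 (2195 calls). The cause of these shifts was not tested. Replicate numbers name different mice at the 2 ages. Their deviations correlated between -0.407 and 0.364, and 1 of 7 numbers correlated best with its own, so the numbers pair nothing and the block is given only as a setting. Over 127 named genes, the sign turned under an alternative in 0 called genes and in 18 that were not called, 22 genes lost a call under at least 1 setting and 12 gained one. The block ended 15 of these calls (*G6pdx*, *Rlbp1*, *Lhx2*, *Gas6*, *Map1lc3b*, *Col1a1*, *Sag*, *Pde6b*, *Arr3*, *Opn1sw*, *Opn1mw*, *Pde6c*, *Mt1*, *Mt2* and *Hadha*), and fitting transcript length and GC content ended 9 (*Rlbp1*, *Lhx2*, *Trpm1*, *Axl*, *Col1a1*, *Mt1*, *Mt2*, *Hadha* and *Ppara*). Of the 8438 genes with the lower mean levels, 5551 were undecided, so their distance from the early control level was not resolved at this depth and sample number.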
